A study of Mus musculus with 6 samples.

Results

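Nlrp2, Nlrp4a, Nlrp4b, Nlrp4e, Nlrp4f, Nlrp9a, Nlrp9b, Nlrp9c and Nlrp14 are 9 mouse genes of the NLRP family whose mRNA oocytes store. They were taken by gene symbol from the 60193 genes listed, of which 53700 carry Ensembl identifiers, and all 9 were among the 18818 that were tested because their FPKM averaged 1 or more. The samples were pools of metaphase II (MII) oocytes from female ICR mice, an outbred stock, aged 42 to 45 weeks, which is a reproductively old age in this species. The 3 in vitro matured (IVM) pools came from germinal vesicle oocytes of PMSG-primed females, freed of cumulus cells and then cultured for 12 h in M16 medium. The 3 in vivo matured (IVO) pools were ovulated oocytes taken from the oviduct 14 h after hCG, given 46 h after PMSG, and freed of cumulus cells with hyaluronidase. Each pool held 20 oocytes of 3 mice, and no younger mice and no immature oocytes were part of the comparison.

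A fully grown oocyte transcribes little, so that maturation and the first cleavages run on mRNA stored during growth. NLRP proteins are built from an N-terminal PYRIN domain, a central nucleotide-binding NACHT domain and C-terminal leucine-rich repeats. The best known members assemble inflammasomes in immune cells, while a separate branch is made in the growing oocyte and stored as maternal mRNA and protein for the early embryo. The subcortical maternal complex, a protein assembly under the egg membrane that early cleavage needs, contains NLRP5 (MATER). NLRP2 and NLRP4F have also been described in association with that complex, so the grouping used here is by gene list and not by a strict boundary. NLRP14 is a maternal-effect protein of the egg. Human NLRP4, a single gene, has been described as a brake on autophagy and interferon signalling, and the mouse carries several copies of it. Nlrp9b is also known from the intestinal epithelium, where it takes part in sensing viral RNA.

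In the authors' domain annotation all 9 genes carried a NACHT domain and a leucine-rich repeat entry, and all but Nlrp14 carried a PYRIN domain. NLRP5 of the maternal complex lacked the PYRIN entry as well. The 4 Nlrp4 genes shared one KEGG orthology group and the 3 Nlrp9 genes another. In the GRCm39 annotation the genes are protein-coding, with 8 to 12 exons in the reference transcript. Nlrp2 lies at chr7:5301546-5354034, Nlrp4b at chr7:10421716-10464095, Nlrp9b at chr7:19725308-19807231, Nlrp4e at chr7:23000617-23061702 and Nlrp14 at chr7:106766153-106797309. Nlrp9c (chr7:26021898-26103125), Nlrp4a (chr7:26134538-26175567) and Nlrp9a (chr7:26234448-26275040) are neighbours, 31.4 kb and 58.9 kb apart, and Nlrp4f (chr13:65324923-65353802) is the only one on another chromosome. No exonic base of the 9 genes was shared with another annotated gene.

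The coding sequences fall into subfamilies. Over aligned coding bases, the 3 pairs within Nlrp9 were 85.4% to 88.4% identical and the 6 pairs within Nlrp4 were 80.3% to 86.8% identical, against 75.6% to 79.7% for the other 27 pairs. Because paralogs this close could share reads, each transcript was cut into windows of 150 bases, the read length, and searched for in the transcripts of all other genes. For 8 of the 9 genes no window of the reference transcript occurred elsewhere. Only exact matches were sought, and the donors were outbred mice. The reference transcript of Nlrp9a (2850 bases) is shorter than the length the authors listed (3336 bases), so part of what they measured may not have been searched. That of Nlrp4a is longer (4147 against 3215 bases). For Nlrp4e, 110 of 3233 windows (3.40%) also occurred in transcripts of the predicted genes Gm16443, Gm4541, Gm8486, Gm8685 and Gm8728, so its values are slightly less certain than the rest. Nlrp4c, which is not one of the 9, was 93.9% identical to Nlrp4e, with an exact stretch of 120 bases. The longest exact stretch between coding sequences of 2 of the 9 genes joined Nlrp9a and Nlrp9b and was 129 bases long, less than a read. It is printed because it was the longest such stretch. It lies in exon 2 of Nlrp9a (chr7:26256972-26257100, plus strand) and in exon 3 of Nlrp9b (chr7:19757353-19757481, plus strand), at coding bases 589 to 717 of both.
Nlrp9a and Nlrp9b, shared coding stretch: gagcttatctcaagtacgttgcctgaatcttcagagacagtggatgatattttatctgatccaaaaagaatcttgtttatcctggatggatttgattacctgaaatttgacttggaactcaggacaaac

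**Figure D1:**
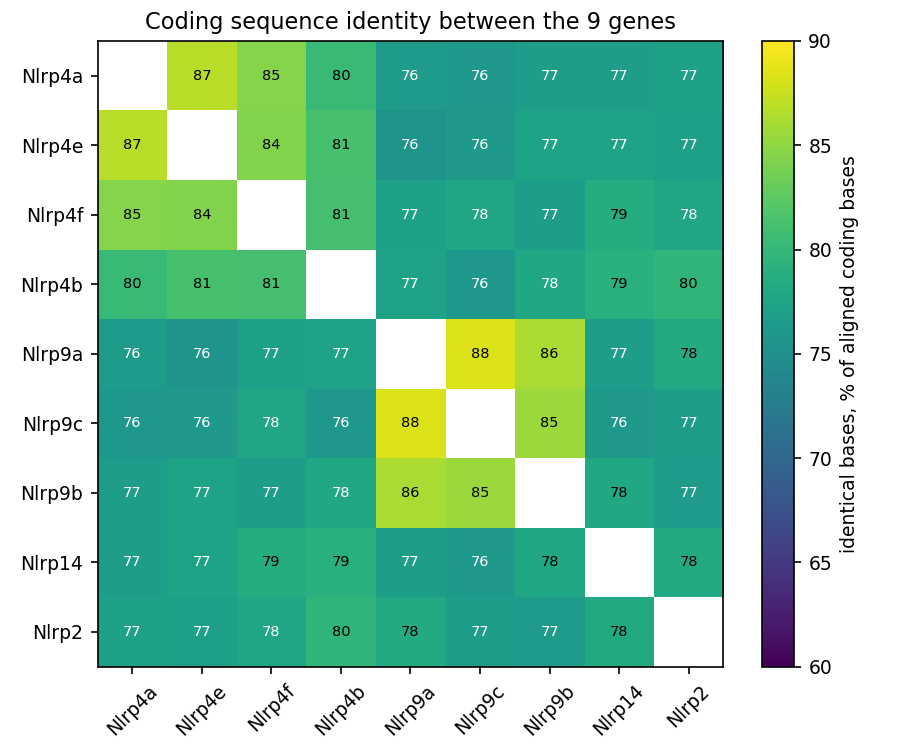
Identity of the coding sequences of the 9 genes, as the percentage of identical bases among aligned coding bases (colour and printed value). The Nlrp4 block, from 80.3% to 86.8%, and the Nlrp9 block, from 85.4% to 88.4%, stand above the remaining pairs.

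The sequence around the annotated start divides the Nlrp4 genes differently. Windows from 250 bases before to 50 bases from the start of the reference transcript onward were read for 7 of the 9 genes from the GRCm39 genome, which is not the genome of the ICR donors. Those of Nlrp4a and Nlrp4b are printed because they are alike, with 76.7% of the 300 bases identical, and that of Nlrp4e for contrast. The window of Nlrp4e shared no more than 59.3% with either, although among the 9 genes its coding sequence is the closest to that of Nlrp4a. The start used for Nlrp4a lies 0.501 kb inside its annotated gene, since another annotated transcript starts further upstream. Its window may thus not be the promoter in use. Capitals mark the E-box pattern CANNTG, the core bound by basic helix-loop-helix factors such as FIGLA of the oocyte, and TATAAA on either strand.
Nlrp4a promoter, chr7:26134789-26135088, plus strand: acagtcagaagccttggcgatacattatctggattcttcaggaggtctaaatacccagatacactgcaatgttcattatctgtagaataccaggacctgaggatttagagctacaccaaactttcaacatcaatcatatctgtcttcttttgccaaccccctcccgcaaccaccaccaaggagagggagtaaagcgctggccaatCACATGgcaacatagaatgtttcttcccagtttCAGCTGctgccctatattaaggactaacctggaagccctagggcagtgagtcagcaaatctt
Nlrp4b promoter, chr7:10421466-10421765, plus strand: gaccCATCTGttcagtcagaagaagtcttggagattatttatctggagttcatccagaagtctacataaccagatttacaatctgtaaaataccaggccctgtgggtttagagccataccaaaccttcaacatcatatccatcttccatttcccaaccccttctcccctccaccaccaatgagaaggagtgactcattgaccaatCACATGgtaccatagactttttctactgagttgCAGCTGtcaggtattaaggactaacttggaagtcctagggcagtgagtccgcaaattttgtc
Nlrp4e promoter, chr7:23000367-23000666, plus strand: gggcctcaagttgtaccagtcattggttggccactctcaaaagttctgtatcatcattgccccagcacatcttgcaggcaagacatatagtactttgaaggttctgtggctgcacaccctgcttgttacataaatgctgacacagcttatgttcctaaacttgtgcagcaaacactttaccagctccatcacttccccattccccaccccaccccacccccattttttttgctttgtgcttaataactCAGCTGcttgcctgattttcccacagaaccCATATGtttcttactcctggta
Nlrp4a and Nlrp4b held CACATG at position -45 and CAGCTG at position -12 from the start. A CANNTG match on either strand, which are the same for this pattern, was found in 6 of the 7 windows (all but Nlrp2) and in 70.6% of 21770 promoters of protein-coding genes. CAGCTG occurred in 3 of the 7 and in 14.9% of all promoters, and CACATG on either strand in 4 of the 7 and in 12.0%. These 2 spellings of the E-box were counted only after the windows of Nlrp4a and Nlrp4b had been seen. TATAAA occurred in the 3 Nlrp9 genes among the 7 and in 13.2% of all promoters. The Nlrp9 windows lie 9.46 to 16.6 kb inside their annotated genes, since other annotated transcripts start further upstream, and those of Nlrp9a and Nlrp9c hold 50 and 45 coding bases, so they may not be the promoters in use and are not printed. TAATTG, described for NOBOX, occurred in 1 of the 7 (Nlrp9b) and in 8.08% of all, and TGATTG, described for LHX8, in 3 of the 7 and in 15.1% of all. A match describes the letters in the window only.

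The values are FPKM as the authors deposited them, the fragments on a gene scaled by transcript length and library size. For the estimate of depth, the transcript length was shortened by a fragment length inferred for each library. The depth, for which the smallest steps in FPKM were read as single fragments, came to 16400000 to 19500000 fragments in IVM and 18000000 to 18200000 in IVO pools. The inferred fragment length was 210 to 215 bases in IVM and 250 to 265 bases in IVO pools, and 3 fragments on a transcript of 3300 bases correspond to 0.0498 to 0.0593 FPKM. DEGs were defined by |log2FC| ≥ 1 together with an adjusted p-value under 0.05, by limma on log2(FPKM + 1) with Benjamini-Hochberg adjustment over all tested genes, and log2FC is IVO minus IVM. The 9 oocyte markers (Gdf9, Bmp15, Zp1, Zp2, Zp3, Npm2, Oosp1, Dppa3 and Mos) summed to 20665 to 26940 FPKM in IVM and 21182 to 23839 FPKM in IVO pools. Of these 9, 3 were DEGs lower in IVO, against 17.9% of all tested genes. Of 13 cumulus and granulosa genes, 4 passed the filter and none was called, the sums overlapped (32.0 to 63.5 FPKM in IVM, 37.1 to 60.1 FPKM in IVO), Amh was listed at 0 throughout and Foxl2 reached 0.02 FPKM. Amhr2, Fshr and Cyp19a1 carried most of these sums, and Kitl was the other gene that passed. Among the 9 genes below the filter, 4 lay higher in every IVO pool than in every IVM pool: Has2 (0.04 to 0.14 FPKM in IVM, 0.17 to 0.37 in IVO), Ptx3 (0 to 0.03, 0.07 to 0.17), Tnfaip6 (0 to 0.14, 0.34 to 0.49) and Gja1 (0.02 to 0.05, 0.24 to 0.86). The others overlapped or stayed at 0, and Inha leaned the other way (0.16 to 0.86 in IVM, 0.09 to 0.41 in IVO). The share of such genes among all genes below the filter was not computed. The 8 leukocyte markers summed to 1.88 to 2.88 FPKM in IVM and 3.78 to 27.9 FPKM in IVO pools. The sum was highest in the third IVO pool, where Lyz2 (15.7 FPKM) and Tyrobp (7.12 FPKM) made up most of it. Both passed the filter only through their IVO values, since in IVM pools Lyz2 stayed at 0.56 FPKM or less and Tyrobp at 0.14 FPKM or less. Cd68 passed as well, and none was called. Each lay higher in every IVO pool than in every IVM pool, as in 9.62% of all tested genes. Ptprc stayed at 0.16 FPKM or less. The 5 oviduct epithelium genes summed to 2.76 to 3.28 FPKM in IVM and 3.26 to 6.04 FPKM in IVO pools, mostly Epcam, with Pax8 listed at 0 throughout. What part these other cells have in the results was not tested.

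The 9 genes were all clearly present, at levels that differed widely. Together they summed to 4275 to 4687 FPKM in IVM and 3907 to 4815 FPKM in IVO pools, which overlap. Nlrp9c stood far above the rest at 2059.6 ± 338 FPKM (SD, n = 3) in IVM, against 2230.1 ± 166 FPKM (SD, n = 3) in IVO pools, among the 165 highest of the tested genes in every library. It alone made up 45.8% ± 5.47 (SD, n = 3) of the summed FPKM of the 9 genes in IVM and 50.4% ± 2.01 (SD, n = 3) in IVO pools. Nlrp2 was the lowest, at 33.6 ± 3.51 FPKM (SD, n = 3) and 25.5 ± 1.77 FPKM (SD, n = 3), and still lay at the 69.3rd percentile of the tested genes or higher in every library. Even its lowest value rested on about 1370 fragments, for which counting alone gives an error of 2.70%. The coefficient of variation between pools was 2.05% or more in each gene and group and exceeded the counting error of that gene, so the pools set the precision of all that follows. Both this error and the floor leave out the noise of cDNA amplification.

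By mean level the order in IVM pools was Nlrp9c, Nlrp14, Nlrp4f, Nlrp9a, Nlrp9b, Nlrp4a, Nlrp4b, Nlrp4e and Nlrp2. The ranges of Nlrp14 and Nlrp4f, of Nlrp4f and Nlrp9a, and of Nlrp9b and Nlrp4a overlapped, and the other neighbours in that order did not. In IVO pools the order was Nlrp9c, Nlrp4f, Nlrp14, Nlrp4a, Nlrp9a, Nlrp9b, Nlrp4b, Nlrp4e and Nlrp2. There the run from Nlrp4a through Nlrp9a, Nlrp9b and Nlrp4b to Nlrp4e overlapped from each gene to the next, and the others did not.

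**Figure D2:**
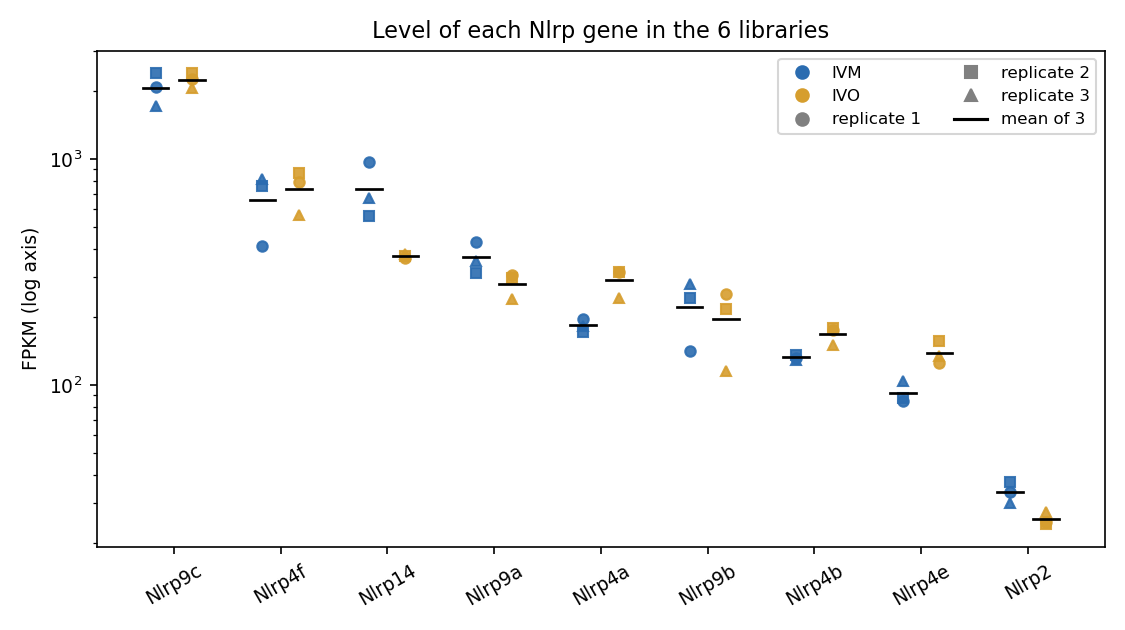
FPKM of each gene in the 6 pools, on a logarithmic axis, for IVM (blue) and IVO (yellow), with a bar at the mean of 3. Nlrp14 is lower and Nlrp4a, Nlrp4b and Nlrp4e are higher in all 3 IVO pools, while Nlrp4f, Nlrp9b and Nlrp9c overlap.

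The comparison of IVO with IVM asked how maturation in vivo and in culture differ in what the egg holds. DEGs lower in IVO numbered 0 of 9, against 17.9% of all tested genes, and DEGs higher in IVO 0 of 9, against 0.606%. Without the threshold on the fold change, 1 was lower (Nlrp14), against 21.5% of all genes, and 1 was higher (Nlrp4a), against 1.87%. At an unadjusted p under 0.05 by the same limma fit, 1 was lower, against 31.4% of all genes, and 2 were higher (Nlrp4a and Nlrp4e), against 5.56%. In 3 genes (Nlrp2, Nlrp9a, Nlrp14) every IVO pool lay below every IVM pool, as in 32.6% of all genes, and in 3 (Nlrp4a, Nlrp4b, Nlrp4e) every IVO pool lay above, as in 9.62%. These counts rest on 9 genes, and whether they differ from the shares of all genes was not tested in either direction.

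The median log2FC of the 9 genes was 0.13, and that of all tested genes was -0.30, with quartiles at -0.99 and 0.15. FPKM as deposited does not sum to the same total in each library: it summed to 1826740 to 2111780 in IVM and 1560810 to 1643680 in IVO pools. The share of lower among all DEGs was 96.7% as deposited, 84.7% after median-ratio scaling of the libraries, which moved the median of all genes to -0.04, and 59.0% after quantile normalization. With median-ratio scaling the median of the 9 genes was 0.45. In that scaling 0 of the 9 genes were DEGs in either direction (11.3% of all genes were lower and 2.05% higher). Without the fold threshold 3 of the 9 were then higher (Nlrp4a, Nlrp4b, Nlrp4e), against 7.14% of all genes, and 0 lower, against 13.2%. These values describe shares of a library. The amount of RNA per oocyte was not measured, so fewer transcripts per oocyte and a larger amount of other RNA cannot be told apart. The cDNA was primed on poly(A) tails, whose lengths were not measured, and their part in these values was not tested.

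**Figure D3:**
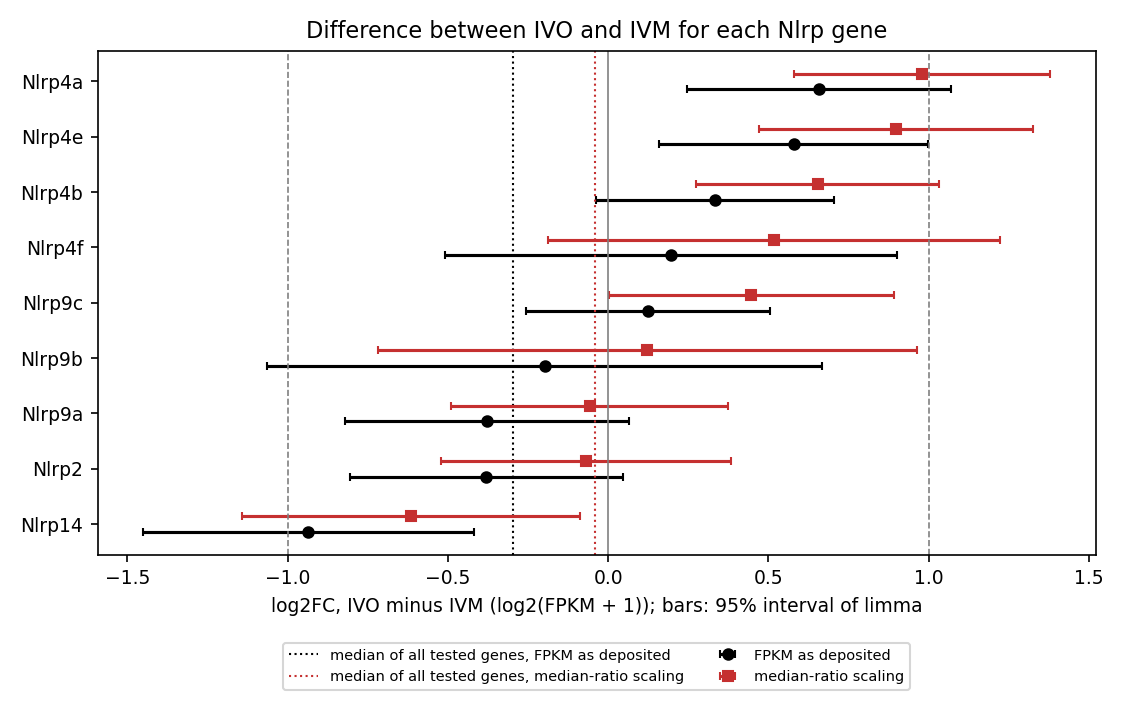
log2FC between IVO and IVM for each gene with its 95% interval from limma, for FPKM as deposited (black) and after median-ratio scaling (red), with dotted lines at the median of all tested genes (-0.30 and -0.04) and dashed lines at the fold threshold of 1. Nlrp4a, Nlrp4e and Nlrp14 have intervals clear of 0 in both, and no point passes the dashed lines.

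Nlrp14, the maternal-effect gene, showed the lowest log2FC of the 9. Its FPKM was 970.3, 557 and 669 in the 3 IVM pools and 364, 373 and 379 in the 3 IVO pools. The IVO values were nearly equal and all of them lay below the lowest IVM value, while the first IVM pool stood above the other two. The mean was 732 ± 214 FPKM (SD, n = 3) in IVM, against 372 ± 7.61 FPKM (SD, n = 3) in IVO, a ratio of 0.508. Nlrp14 fell by 0.94 on the log2 scale (SE 0.22, 95% interval -1.45 to -0.42, limma adjusted p = 0.0228), just short of the fold threshold. Leaving out the second IVM pool gave -1.11 with an adjusted p of 0.0225, which is a DEG by both criteria. Over the 6 fits without 1 pool each, the adjusted p ran from 0.0225 to 0.0636 and stayed below 0.05 in 2. With median-ratio scaling the log2FC was -0.61 with a limma adjusted p of 0.0920, so the call at an adjusted p of 0.05 was lost there while the direction held in all 19 alternative settings.

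Nlrp4a moved the other way. Its FPKM was 195, 172 and 183 in the IVM pools and 317, 317 and 242 in the IVO pools. The IVM values were close together, and the third IVO pool was the lowest of its group but above all IVM pools. Nlrp4a rose from 183 ± 11.6 (SD, n = 3) to 292 ± 43.0 FPKM (SD, n = 3), with a log2FC of 0.66 (SE 0.18, 95% interval 0.25 to 1.07, limma adjusted p = 0.0344). It rose by 0.98 on the log2 scale with median-ratio scaling (limma adjusted p = 0.0134). Over the 6 fits without 1 pool each, the adjusted p of Nlrp4a ran from 0.0314 to 0.120 and stayed below 0.05 in 1, that without the third IVO pool.

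Nlrp4e, the closest to Nlrp4a in coding sequence among the 9, had 85.4, 87.7 and 104 FPKM in IVM and 125, 157 and 134 FPKM in IVO pools. The groups did not overlap, at 92.3 ± 10.1 (SD, n = 3) and 139 ± 16.6 FPKM (SD, n = 3). Its log2FC was 0.58 (SE 0.18, 95% interval 0.16 to 0.9996, limma adjusted p = 0.0556), which misses the threshold. With median-ratio scaling it was 0.90 (limma adjusted p = 0.0199).

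Nlrp4b, the most distant of the Nlrp4 genes in coding sequence, had 132, 136 and 129.5 FPKM in IVM and 174, 179 and 150.4 FPKM in IVO pools. The groups did not overlap here either, and the IVM values were within a narrow band (133 ± 3.51, SD, n = 3, against 168 ± 15.2 FPKM, SD, n = 3). The log2FC of 0.33 (SE 0.16, 95% interval -0.04 to 0.71) did not pass limma's test (adjusted p = 0.174), and with median-ratio scaling a value of 0.65 did (adjusted p = 0.0332).

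Nlrp4f, described with the subcortical complex and the most abundant of the Nlrp4 genes, had 411, 754 and 816 FPKM in IVM and 786, 863 and 562 FPKM in IVO pools. Its groups overlapped throughout, at 660.4 ± 218 (SD, n = 3) and 737 ± 156 FPKM (SD, n = 3). The log2FC was 0.20 (95% interval -0.51 to 0.90, limma adjusted p = 0.680), an interval too wide to show whether it moved with Nlrp4a. With median-ratio scaling it was 0.52 (limma adjusted p = 0.243). Nlrp4f made up 60.6% ± 9.21 (SD, n = 3) of the summed FPKM of the 4 Nlrp4 genes in IVM and 54.9% ± 2.86 (SD, n = 3) in IVO pools.

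Nlrp9c, the most abundant of the 9, had 2083, 2385 and 1710.5 FPKM in IVM and 2246, 2387 and 2057 FPKM in IVO pools. The groups overlapped, and the log2FC was 0.13 (SE 0.16, 95% interval -0.26 to 0.51, limma adjusted p = 0.622). A 2-fold difference in either direction lies outside that interval. The value of Nlrp9c was 0.45 with median-ratio scaling and 0.41 after quantile normalization, neither of which passed (limma adjusted p = 0.129 and 0.0576), and to 0.46 with libraries scaled to the same sum, which did (limma adjusted p = 0.0488).

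Nlrp9a had 430.4, 314 and 355 FPKM in IVM and 305, 298 and 239 FPKM in IVO pools. The lowest IVM pool and the highest IVO pool were close, but the groups did not overlap (366 ± 59.1, SD, n = 3, against 281 ± 36.1 FPKM, SD, n = 3). Its log2FC of -0.38 (SE 0.19, 95% interval -0.82 to 0.06) did not pass limma's test (adjusted p = 0.193), and it lay near the median of all tested genes. With median-ratio scaling it was -0.06 (limma adjusted p = 0.841).

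Nlrp9b had 142, 243 and 279 FPKM in IVM and 253, 217 and 115 FPKM in IVO pools. Both groups spread widely and overlapped, at 221 ± 71.0 (SD, n = 3) and 195 ± 71.8 FPKM (SD, n = 3), so that the log2FC of -0.20 had an interval from -1.06 to 0.67 (limma adjusted p = 0.738). With median-ratio scaling the sign of Nlrp9b changed, to 0.12 (limma adjusted p = 0.826).

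Within a library, the shares of the 3 Nlrp9 genes do not depend on how libraries are scaled. Nlrp9c held 77.5% ± 4.13 (SD, n = 3) of their summed FPKM in IVM and 82.5% ± 2.62 (SD, n = 3) in IVO pools. Nlrp9a held 14.01% ± 2.94 (SD, n = 3) and 10.4% ± 0.486 (SD, n = 3), and Nlrp9b 8.49% ± 3.28 (SD, n = 3) and 7.10% ± 2.16 (SD, n = 3). The differences, of 5.04, -3.65 and -1.39 percentage points, gave p = 0.2, 0.2 and 0.6 in exact two-sided permutation tests, or 0.3, 0.3 and 0.6 adjusted over the 3 shares. The smallest p that 3 against 3 pools allow is 0.1, so these tests could not have passed the threshold of 0.05.

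Nlrp2, the least abundant of the 9, had 33.6, 37.1 and 30.1 FPKM in IVM and 24.8, 24.2 and 27.5 FPKM in IVO pools. Every IVO pool lay below every IVM pool, with a log2FC of -0.38 (SE 0.18, 95% interval -0.81 to 0.05, limma adjusted p = 0.177). With median-ratio scaling the value was -0.07 (limma adjusted p = 0.819).

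Ratios between genes of the same library also stand free of scaling. The ratio of Nlrp4a to Nlrp14 was 0.201, 0.308 and 0.274 in IVM pools and 0.869, 0.849 and 0.639 in IVO pools. The highest IVM ratio was thus below the lowest IVO ratio, and the mean difference was 1.598 on the log2 scale. The ratio of Nlrp4e to Nlrp14 differed by 1.52 on the log2 scale, and that of Nlrp4a to its neighbour Nlrp9a went from 0.506 ± 0.0479 (SD, n = 3) to 1.04 ± 0.0254 (SD, n = 3). These ratios were chosen after the values were seen and are a description only. Of the summed FPKM of all 9 genes, Nlrp14 made up 16.4% ± 4.92 (SD, n = 3) in IVM, against 8.46% ± 1.09 (SD, n = 3) in IVO pools, and Nlrp4a 4.10% ± 0.377 (SD, n = 3) and 6.56% ± 0.345 (SD, n = 3).

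Nlrp4f and Nlrp9b, which lie on different chromosomes and belong to different subfamilies, varied alike among pools. In both, the first IVM and the third IVO pool were the 2 lowest of the 6 libraries, which was the case for 6.54% of all tested genes, and this pattern was noticed after the values were seen. Their ratio was 2.90, 3.11 and 2.93 in IVM pools and 3.10, 3.97 and 4.88 in IVO pools. The first IVM pool had the fewest inferred fragments (16400000) and the third IVO pool the highest leukocyte marker sum (27.9 FPKM), and the part of either was not tested. Without these 2 pools the log2FC was 0.07 for Nlrp4f, -0.15 for Nlrp9b, 0.83 for Nlrp4a and -0.73 for Nlrp14. The limma adjusted p was then 0.0526 for Nlrp4a and 0.0772 for Nlrp14, in a fit of 4 pools.

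**Figure D4:**
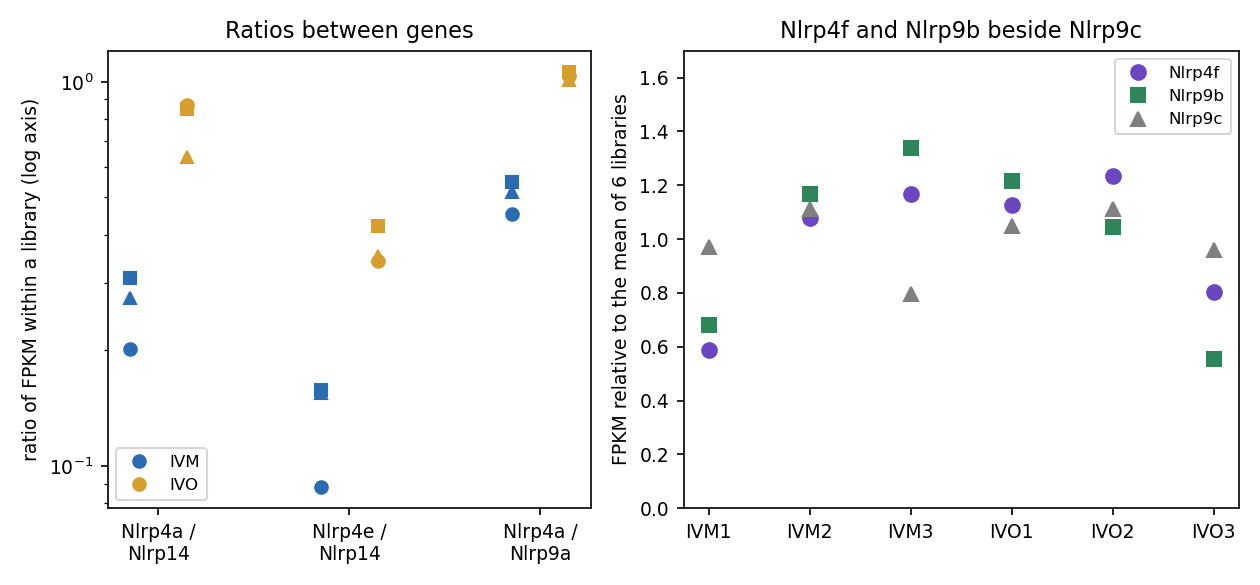
Left, ratios of FPKM within each library on a logarithmic axis for IVM (blue) and IVO (yellow), replicates 1, 2 and 3 as circles, squares and triangles, with Nlrp4a to Nlrp14 at 0.308 or less in IVM and 0.639 or more in IVO pools. Right, FPKM of Nlrp4f, Nlrp9b and Nlrp9c in each library relative to the gene's own mean of the 6 libraries, with Nlrp4f and Nlrp9b lowest in IVM1 and IVO3.

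The genes of the subcortical maternal complex are given beside them. Of 6 tested, 4 were DEGs lower in IVO, against 17.9% of all tested genes, and 0 higher, against 0.606%. Their median log2FC in FPKM as deposited was -1.68, against -0.30 for all tested genes. Nlrp5, the NLRP subunit, went from 160.4, 128 and 131 FPKM in IVM to 49.6, 31.4 and 26.0 FPKM in IVO pools (log2FC -1.99, limma adjusted p = 0.00351). Khdc3 (-3.65), Tle6 (-2.55) and Padi6 (-1.38), which encode other proteins of the complex, were the remaining 3. Ooep, which encodes a KH-domain subunit, had a log2FC of -0.85 that did not pass limma's test (adjusted p = 0.184), nor did Zbed3 at 0.38 (adjusted p = 0.443). None of the 9 Nlrp genes had a log2FC as low as that of Nlrp5, and the difference between the 2 lists was not tested.

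Most of the other NLR genes were listed at very low values. Of 20, 14 stayed below a mean of 1 FPKM, among them Nlrp3, the inflammasome sensor of macrophages, at 0.09 FPKM or less, and 3 (Nlrp1b, Nlrx1, Naip6) were listed at 0 in every library. Of the 6 tested, 3 were DEGs lower in IVO, against 17.9% of all tested genes, and 0 higher, against 0.606%. Nlrp12 was the most abundant, at 863, 784 and 845 FPKM in IVM and 455, 297 and 434 FPKM in IVO pools (log2FC -1.09, limma adjusted p = 0.00942). The log2FC of Nlrc3 was -1.08 and that of Naip1 was -1.64 (limma adjusted p = 0.00843 and 0.0128). Nlrp4g, a further Nlrp4 copy, had 10.5, 10.5 and 11.8 FPKM in IVM and 20.4, 15.2 and 25.2 FPKM in IVO pools (log2FC 0.81, limma adjusted p = 0.0429), higher without the fold threshold. Nlrp4c, at 2.15, 1.96 and 2.59 FPKM in IVM and 3.18, 2.65 and 2.55 FPKM in IVO pools, did not pass (log2FC 0.23, limma adjusted p = 0.498), and neither did Nlrc4 (0.59, adjusted p = 0.149).

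The partners with which NLRP proteins form inflammasomes were mostly at very low values. Of 9 genes, 4 passed the filter. Pycard, the ASC adaptor that binds PYRIN domains, stayed at 0.23 FPKM or less, Casp1, the caspase it recruits, at 0.27 FPKM or less, and Gsdmd, the pore-forming protein that caspase cleaves, at 0.07 FPKM or less. Txnip, a thioredoxin-binding protein, was the 1 DEG of the 4 that passed, lower in IVO (log2FC -1.28, limma adjusted p = 0.00309). DEGs lower in IVO made up 17.9% of all tested genes. Nek7, a kinase that binds NLRP3, and Aim2, a DNA sensor, had values of 0.49 and 0.62 that did not pass (limma adjusted p = 0.109 and 0.101). Il1b was listed at 0 in all IVM pools and the second IVO pool and at 2.1 and 4.89 FPKM in the other two IVO pools. Il18, which stayed below the filter, went the other way, with 0.5, 1.02 and 1.4 FPKM in IVM and 0, 0.37 and 0.24 FPKM in IVO pools.

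The likeness of other genes was measured by Pearson's r over the 6 libraries between log2(FPKM + 1) of a gene and the mean of the 9 genes, which ranged from 7.84 in the third IVO pool to 8.14 in the second. Among 6790 other Ensembl genes that averaged 10 FPKM or more, the 5 most alike were Gm10323 (r = 0.988), Wdr48 (0.979), Gm28551 (0.969), Stau2 (0.961) and Zfp640 (0.952). Wdr48 encodes a partner of deubiquitinating enzymes and Stau2 a double-stranded RNA-binding protein. The mean was lowest in the third IVO pool (7.84) and next in the first IVM pool (7.97), the pools in which Nlrp4f and Nlrp9b were also lowest. Likeness to this mean is therefore not likeness to each of the 9 genes, such as Nlrp14 or Nlrp4a. The 6 points share the depth and scaling of their libraries, and the values are a description only.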

How the data were processed

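RNA-seq was analysed for 6 pools of MII oocytes, 3 IVM and 3 IVO, grouped by sample title and description. Per the labels and the study's methods, the authors amplified cDNA with the SMART-Seq v4 kit, which primes on poly(A) tails, built Nextera XT libraries and sequenced paired ends of 150 bases. They aligned to GRCm39 with HISAT2 2.1.0 and estimated abundance with RSEM 1.3.3. The deposited FPKM, in which fragments are scaled by transcript length and library size, were used here, and the group means were not. The authors' lengths, KEGG and domain columns served as annotation. A count test was not run, since FPKM is not a count.

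limma 3.58.1 in R 4.3.3 (lmFit, eBayes with trend, two-sided) was fitted on log2(FPKM + 1) over the 18818 genes that averaged 1 FPKM or more. The group was the only term, and the log scale understates changes of low genes. The script was tested on simulated data. Alternatives were a pseudocount of 0.1, other filters (none, or a mean of 5), 3 scalings, no trend, Ensembl genes only, a replicate block, removal of length trends by lowess (span 0.3) and leaving out each pool. Added after seeing the data were leaving out the first IVM with the third IVO pool, and Ensembl genes with median-ratio scaling.

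Depth came from low FPKM values of 8189 genes with 1 transcript of 500 to 1200 bases: 74.6% to 79.6% of values worth few fragments were whole within 0.1 fragments. Pools counted as replicates, and the labels call them biological. Sequences and coordinates are from GRCm39, read with Python 3.11.15 and Biopython 1.88. All 9 genes are named, and of the other lists those whose mean FPKM reached 1. The oocyte list is given in full. Genes named below that mean (Pycard, Casp1, Gsdmd, Il18, Nlrp3, Amh, Foxl2, Inha, Has2, Ptx3, Tnfaip6, Gja1, Ptprc and genes at 0) were chosen after their values were seen. The genes and lists were chosen with earlier results of these data known. Protein sequences were not used here, and the promoters of 2 of the genes are not reported here.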

Additional observations from a re-analysis of the deposited data

How the results depend on the processing

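Of 171 values of log2FC recomputed for the 9 genes over 19 alternative settings, 126 kept their direction and their side of an adjusted p of 0.05, 22 kept the direction but lost the call, 12 gained it and 11 changed sign. Nlrp4a, Nlrp4b, Nlrp4e and Nlrp14 kept their direction in all 19, with log2FC from 0.59 to 1.17, 0.29 to 0.84, 0.49 to 1.10 and -1.11 to -0.47. The limma adjusted p of Nlrp14 ranged from 0.0193 to 0.136 and that of Nlrp4a from 0.00954 to 0.120. Quantile normalization turned Nlrp2 to 0.084, Nlrp9a to 0.14 and Nlrp9b to 0.30, and made 2 of the 9 genes (Nlrp4a and Nlrp4e) DEGs higher in IVO. Nlrp9b also turned with median-ratio scaling (0.12), scaling to the same sum (0.14), removal of the length trend (0.0012, with or without the replicate block) and Ensembl genes with median-ratio scaling (0.0185). Without 1 pool each, Nlrp4f ranged from -0.11 to 0.38, Nlrp9b from -0.49 to 0.14 and Nlrp9c from -0.00199 to 0.24. The median of the 9 genes was 0.45, 0.41 and 0.46 with median-ratio, quantile and same-sum scaling. Over the fits without 1 pool each, that median ran from -0.11 without the first IVM pool to 0.24 without the second, so its sign was not stable. Without the fold threshold the counts were 1 lower and 1 higher. Without 1 pool each, 0 to 1 were DEGs lower, and the difference in the Nlrp9b share ranged from -2.97 to 0.302 percentage points, turning positive without the third IVM pool.

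The replicate number was shared by IVM and IVO pools, but deviations of same-numbered pools correlated at only -0.062, -0.018 and -0.107, so the numbers do not pair them. With the replicate block 0 of the 9 genes were DEGs, and 0 passed an adjusted p of 0.05 without the fold threshold. Over all genes the block gave 2899 DEGs lower and 92 higher, against 3366 and 114. The calls over all genes moved by more than 1.5 times with median-ratio scaling (2130 and 385), quantile normalization (1580 and 1097), same-sum scaling (2131 and 397), removal of the length trend (1511 and 557), the latter with the block (741 and 188), and without the first IVM and the third IVO pool (2138 and 83). Ensembl genes only gave 1972 and 84, and with median-ratio scaling 1416 and 194. Both of these fits tested 13154 genes and not 18818, so fewer calls there partly reflect fewer genes. With 3 pools a group, differences below the spread between pools could not be seen. The cause of these changes was not tested.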
